A study of Homo sapiens with 4 samples.

Results

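The genes described here are 45 genes for DNA replication licensing, the replicative polymerases and nucleotide supply. They were chosen by name, as the subunits of the known complexes and the enzymes beside them. The rule uses no measured value, but it was set with earlier results of these data known. All 45 were listed in each of the 4 deposited tables, which together list 27629 genes. They were the 6 subunits of the origin recognition complex, 3 loading factors, the 6 subunits of the MCM2-7 helicase, 6 factors of helicase activation, 4 subunits of DNA polymerase alpha-primase, 5 of polymerases delta and epsilon, PCNA with the 5 subunits of its loader RFC, 3 subunits of RPA, 2 enzymes of Okazaki fragment joining and 4 enzymes of nucleotide supply.

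RNA-seq was performed in UM-UC-3 cells, a long-established line from a human bladder cancer, with 1 library per condition and therefore no replicate check of any difference. Control cells received a negative control siRNA, and the 3 other cultures received a mixture of 2 siRNAs against hnRNPK, PTBP1 or lncRNA-LBCS, in each case at 75 nM with Lipofectamine RNAiMAX and with no other agent. hnRNPK and PTBP1 are RNA-binding proteins, and lncRNA-LBCS is a long non-coding RNA. For the control and si-hnRNPK cells, the study's methods give 48 h of transfection and 100-base paired-end reads, and all the libraries were made from total RNA of the whole culture.

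Before a cell can copy its DNA, the origin recognition complex marks the origins, and CDC6 and CDT1 load the MCM2-7 helicase there, which is called licensing. In S phase the helicase is switched on by CDC45 and the GINS complex, polymerase alpha-primase starts each strand, and polymerases delta and epsilon extend it with the sliding clamp PCNA. Many of the genes are known targets of the E2F transcription factors, and their transcripts are plentiful in dividing cells. In RNA from a whole culture, fewer cells in S phase and less RNA per cell cannot be told apart.

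The siRNAs are shown first, because every difference below is a difference between cells given these oligonucleotides. Each is the sense strand from the sample labels, 5′ to 3′, with bases 12 to 18 in capitals, the letters that a transcript must hold to pair with bases 2 to 8 (the seed) of the guide strand.
control siRNA: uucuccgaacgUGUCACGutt
hnRNPK siRNA 1: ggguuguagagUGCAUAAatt
hnRNPK siRNA 2: gccuccaucuaGAAGAGAutt
PTBP1 siRNA 1: gccucaacgucAAGUACAatt
PTBP1 siRNA 2: cccucauugacCUGCACAatt
lncRNA-LBCS siRNA 1: gcugcucauuuGUCUGAUctt
lncRNA-LBCS siRNA 2: ggugguagucaACACAAAutt
The 19 paired bases of the hnRNPK siRNAs matched HNRNPK and its pseudogenes HNRNPKP1, HNRNPKP2 and HNRNPKP4 in the GENCODE transcripts, those of the PTBP1 siRNAs matched PTBP1 alone, and those of the control siRNA matched no transcript. None of the 45 genes was a match.

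The levels are given in CPM, reads per gene after each library is brought to one common total, and a change is the difference in log2(CPM + 1) between 2 libraries. This scale understates the change of low genes, and a difference of 1 or more (about 2-fold) was counted as past the threshold. Genes had to reach 1 CPM in either library of a comparison. Percentages of control are ratios of CPM with 95% Clopper-Pearson intervals of the reads, which cover counting error only and not the spread between cultures. The libraries held 54301152 to 70232674 reads on listed genes, and si-hnRNPK was the shallowest. The lowest value of any of the 45 genes was 10.2 CPM, or 554 reads, so all 45 passed the filter in every comparison.

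The targeted genes were examined in each library first. HNRNPK stood at 783 CPM in control, 188 in si-hnRNPK, 656 in si-PTBP1 and 808 in the remaining library, labelled si-lncRNA-LBCS, so that it was at 24% of control in si-hnRNPK (95% interval 23.5 to 24.5%). PTBP1 stood at 280, 253, 89.7 and 327 CPM in the same order, which is 32% of control in si-PTBP1 (interval 31 to 33.1%). Both were lowest in the library that carries their name. The transcript matched by the lncRNA-LBCS siRNAs (ENSG00000228412) stood at 1.79 CPM in control, 3.43 in si-hnRNPK, 3.82 in si-PTBP1 and 1.47 in the library with that label. It was at 191% of control in si-hnRNPK (interval 150 to 244%) and 213% in si-PTBP1 (interval 168 to 271%). It too was lowest in the library with its label, on 103 reads beside 110 in control. The interval there, 61.9 to 108% of control, included no change. That library is therefore named only by its label, as the LBCS-labelled library. The keratins KRT8 (63 to 94.8 CPM) and KRT18 (75.2 to 121 CPM) and the mesenchymal gene VIM (1417 to 2343 CPM) were present in all libraries, and KRT7 (1.42 to 3.03 CPM), PPARG (2.33 to 5.19 CPM) and CDH2 (47.1 to 78.6 CPM) were too. The urothelial and epithelial markers KRT5, KRT19, GATA3, UPK1A, UPK1B and UPK2 were below 1 CPM in all libraries, EPCAM was listed in 1 of them, at 0.0178 CPM, and CDH1 and UPK3A were listed in none. Of 6 white blood cell markers CD14 alone was listed, below 0.1 CPM, and of 2 endothelial markers CDH5 alone, at no more than 0.129 CPM.

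**Figure D1:**
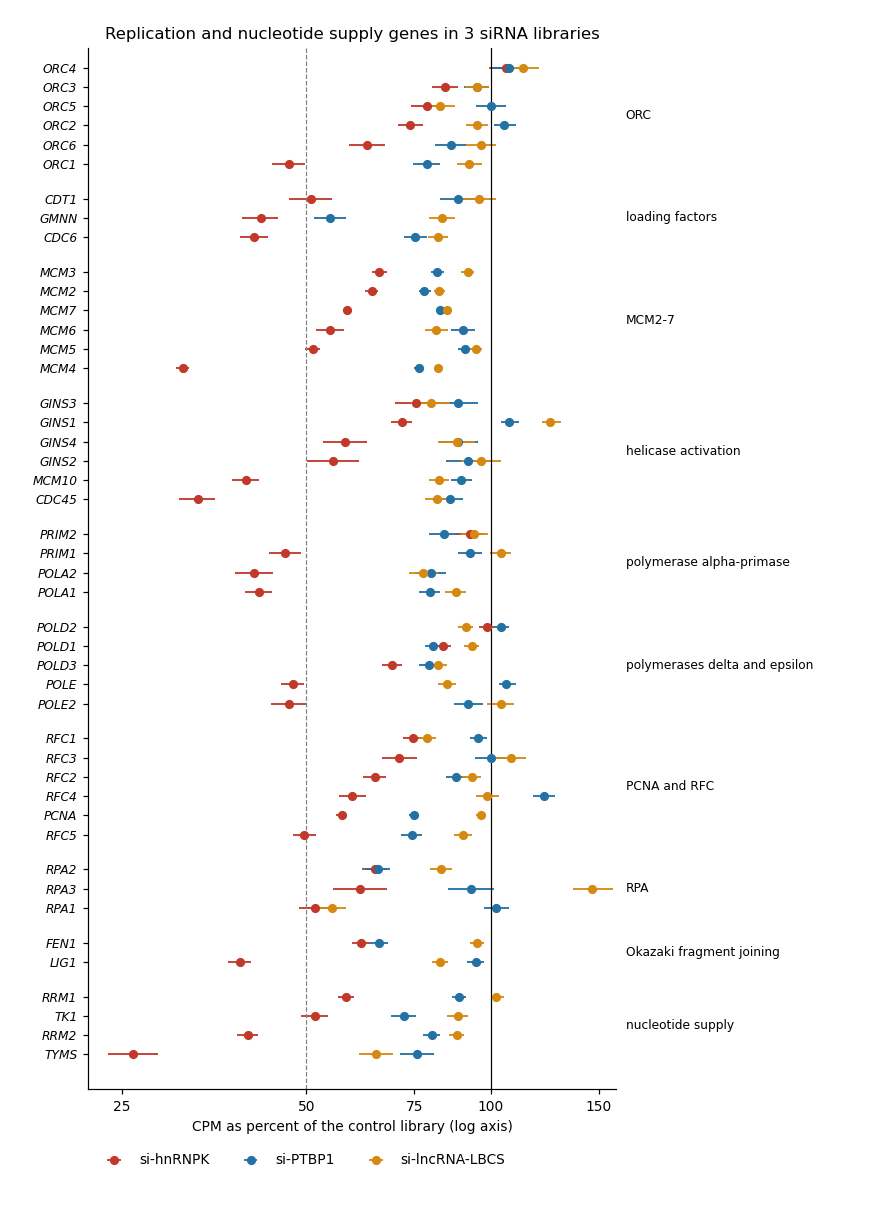
Level of each of the 45 genes as a percentage of the control library (CPM ratio, log axis) in the 3 siRNA libraries, grouped by complex, with bars for the 95% counting interval, a solid line at control and a dashed line at 50%. The si-hnRNPK points run from 26.1% (TYMS) to 106% (ORC4), the si-PTBP1 points from 54.7% (GMNN) to 122% (RFC4) and the si-lncRNA-LBCS points from 55% (RPA1) to 146% (RPA3).

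The replication genes were lower in si-hnRNPK than in control almost without exception. 44 of the 45 were lower at all, beside 58.4% of all 13672 genes tested, and the exception was the origin subunit ORC4. 14 fell by 1 or more, which is 31.1% of them beside 3.93% of all genes, and none rose by 1 or more, beside 3.55% of all genes. The median difference of the 45 was -0.78, with a range of -1.84 to 0.08, and the median of all genes was -0.11. Summed over the 45 genes, the level was 5309 CPM in control and 3028 CPM in si-hnRNPK, that is 57% of control (interval 56.7 to 57.4%). Another scaling sets the typical gene to no change (median of ratios over 12362 genes), which moves all differences in si-hnRNPK up by 0.11. After it, 10 of the 14 were still past the threshold, beside 2.72% of all genes lower by as much. The median of the 45 was then -0.67 and that of all genes 0.00. With a lower threshold of 1.5-fold, 33 of the 45 were lower, beside 15.8% of all genes, and an exact binomial test of the reads, which compares these libraries and not the conditions, called 43 (79.7% of all genes). The scaling changes the split of all genes past the threshold from 537 lower and 486 higher to 374 lower and 610 higher.

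In si-PTBP1 and in the LBCS-labelled library these genes differed less from control. In si-PTBP1, 38 of the 45 were lower than control, beside 36.5% of 13855 genes, and none was past the threshold in either direction (0.613% of all genes lower, 2.92% higher). Their median was -0.17 while that of all genes was 0.12, and their summed level was 4482 CPM, or 84.4% of control (interval 84 to 84.9%). In the LBCS-labelled library, 38 of the 45 were lower, beside 51.8% of 13492 genes, and again none was past the threshold (1.01% of all genes lower, 0.378% higher). There the median was -0.15 beside -0.01 for all genes, and the summed level was 4746 CPM, or 89.4% of control (interval 89 to 89.8%). At 1.5-fold, 3 of the 45 were lower in si-PTBP1 (3.12% of all genes) and 2 in the LBCS-labelled library (5.74%), and the binomial test called 40 (73.8%) and 38 (70.5%). The 3 comparisons share the 1 control library, so their differences are not independent of each other. With the median-of-ratios scaling, the count of all genes past the threshold in si-PTBP1 went from 85 lower and 404 higher to 132 lower and 256 higher. The number of the 45 that were lower went to 44, with a median of -0.30 beside 0.01 for all genes.

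**Figure D2:**
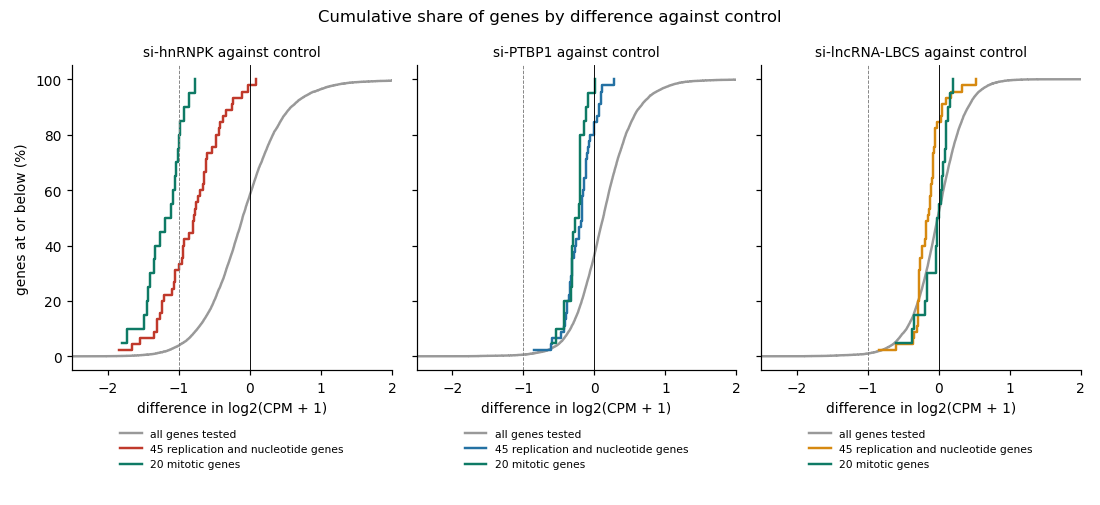
Cumulative share (percent) of the 45 genes, of 20 mitotic genes and of all genes tested by their difference in log2(CPM + 1) from control, in 1 panel for each siRNA library, with a dashed line at the threshold of -1. In si-hnRNPK the medians are -0.78 for the 45 genes, -1.15 for the mitotic genes and -0.11 for all genes, while the 45 genes have medians of -0.17 in si-PTBP1 and -0.15 in si-lncRNA-LBCS.

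The differences of si-hnRNPK from si-PTBP1 and from the LBCS-labelled library do not use the control library. They use the same si-hnRNPK library as the comparison with control, so they are not independent of it. Against si-PTBP1, 43 of the 45 were lower in si-hnRNPK (69.6% of all genes), and 7 fell by 1 or more (6.05% of all genes), namely TYMS (-1.45), CDC45 (-1.33), MCM4 (-1.28), LIG1 (-1.26), MCM10 (-1.15), POLE (-1.15) and RFC4 (-1.02). At 1.5-fold there were 21 (23% of all genes). The median was -0.57 against -0.24 for all genes. This comparison leans most on the scale of the libraries: all genes past the threshold were 840 lower and 330 higher as deposited and 369 lower and 530 higher with the median-of-ratios scaling. Under it 36 of the 45 were lower, and the median of the 45 was -0.34 in place of -0.57, beside -0.02 for all genes. MCM4, CDC45, LIG1 and TYMS were still past the threshold (2.67% of all genes). Against the LBCS-labelled library, 44 of the 45 were lower (58.9% of all genes), and 10 fell by 1 or more (2.51% of all genes). These were MCM4 (-1.38), CDC45 (-1.26), TYMS (-1.24), RPA3 (-1.19), PRIM1 (-1.14), RRM2 (-1.12), POLE2 (-1.11), LIG1 (-1.07), POLA1 (-1.05) and MCM10 (-1.03), with a median of -0.75 for the 45 and -0.09 for all genes. At 1.5-fold there were 26 (11.5% of all genes). With the median-of-ratios scaling 38 of the 45 were lower and 7 were past the threshold (1.76% of all genes), without LIG1, POLA1 and MCM10. The median of the 45 was then -0.65 and that of all genes 0.01. The split of all genes was here 339 lower and 418 higher as deposited and 239 lower and 499 higher with the other scaling.

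Ranked over the libraries, si-hnRNPK held the lowest level of 41 of the 45 genes, beside 43.6% of all genes, and control held the highest level of 33, beside 21.4%. The exceptions to the first count were ORC4, which was lowest in control, PRIM2 and POLD1, which were lowest in si-PTBP1, and POLD2, which was lowest in the LBCS-labelled library. Without that library, si-hnRNPK was the lowest of the remaining 3 for 42 genes (51.6% of all genes). With the median-of-ratios scaling it was the lowest of the 4 for 33 genes (32.1% of all genes).

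The origin recognition complex is the platform on which licensing starts, and its 6 subunits did not move together. ORC1, the subunit whose level is known to change over the cell cycle, was at 57.1 CPM in control, 52.7 in the LBCS-labelled library, 26.7 in si-hnRNPK and 44.9 in si-PTBP1. It fell to 46.8% of control in si-hnRNPK (interval 44 to 49.7%, difference -1.07), and was no longer past the threshold after median-of-ratios scaling. ORC4 differed least as deposited, at 29.2, 32.9, 31 and 31.4 CPM in the same order. Its interval in si-hnRNPK, 99.1 to 113% of control, included no change. With the median-of-ratios scaling its difference there went from 0.08 to 0.19, and ORC3 was then closer to control, at -0.13. The other subunits lay between, with differences of -0.24 for ORC3, -0.34 for ORC5, -0.43 for ORC2 and -0.65 for ORC6 in si-hnRNPK. Summed over the complex, the level was 73.1% of control in si-hnRNPK, 94.8% in si-PTBP1 and 94.6% in the LBCS-labelled library.

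The loading factors were the group with the lowest summed level in si-hnRNPK, at 43.2% of control (interval 41.6 to 44.8%). CDC6, the ATPase that joins the origin recognition complex and recruits the helicase, stood at 85.3 CPM in control, 69.9 in the LBCS-labelled library, 35 in si-hnRNPK and 64.3 in si-PTBP1. It fell by 1.26 in si-hnRNPK, to 41% of control (interval 38.9 to 43.2%). GMNN encodes geminin, which binds CDT1 and blocks a second round of licensing. Its levels were 52.1, 43.3, 21.9 and 28.5 CPM in the same order, so it fell to 42.1% of control in si-hnRNPK (interval 39.3 to 45%, difference -1.21). GMNN also had the lowest ratio to control of all 45 genes in si-PTBP1, 54.7% (interval 51.5 to 58.1%), although its difference of -0.85 did not reach the threshold. CDT1, the partner of CDC6 in loading, was at 32.5, 31.1, 16.5 and 28.7 CPM, and its difference of -0.94 in si-hnRNPK was just outside the threshold.

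As licensing needs CDT1 free of geminin, the ratio of their reads was taken after the values were seen. There were 0.625 CDT1 reads for each GMNN read in control, 0.718 in the LBCS-labelled library, 0.754 in si-hnRNPK and 1.01 in si-PTBP1. The counting interval in si-PTBP1 was 0.94 to 1.08 and that in control 0.59 to 0.661. A ratio of reads within a library is unaffected by the scale of the library, and it compares the libraries rather than the amounts of the 2 transcripts, whose lengths differ. It is a ratio of RNA, and neither protein was measured in these libraries.

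The MCM2-7 helicase unwinds the DNA ahead of the fork as a ring of 6 different subunits. All 6 were lower in si-hnRNPK, in si-PTBP1 and in the LBCS-labelled library than in control. In si-hnRNPK their summed level went from 1894 to 1001 CPM, or 52.8% of control (interval 52.3 to 53.4%). MCM4 stood apart within the ring. It was at 436 CPM in control, 357 in the LBCS-labelled library, 137 in si-hnRNPK and 333 in si-PTBP1, and it fell by 1.67 in si-hnRNPK, to 31.4% of control (interval 30.6 to 32.2%). MCM7, the highest of the ring per length, was at 627 CPM in control, 532 in the LBCS-labelled library, 366 in si-hnRNPK and 518 in si-PTBP1, and its 58.3% of control in si-hnRNPK (interval 57.3 to 59.3%, difference -0.78) was within the threshold. The 5 subunits other than MCM4 were at 51.2% (MCM5) to 65.7% (MCM3) of control there, with differences of -0.60 to -0.96, none past the threshold. In si-PTBP1 the 6 subunits lay at 76.3% (MCM4) to 90.6% (MCM5) of control, and in the LBCS-labelled library at 81.5% (MCM6) to 94.4% (MCM5).

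The unequal change within the ring could also be read without any scaling between libraries, in ratios picked after the values were seen. For each MCM7 read there were 0.695 MCM4 reads in control, 0.672 in the LBCS-labelled library and 0.643 in si-PTBP1, but 0.374 in si-hnRNPK (interval 0.364 to 0.384). MCM2 did not share this shift, with 0.469, 0.455 and 0.442 reads for each MCM7 read in those libraries and 0.514 in si-hnRNPK. Per kilobase of exon, MCM4 was close to MCM2 and MCM3 in control, at 62.5, 59.9 and 61.4 CPM per kb. In si-hnRNPK it was at 19.6 CPM per kb while they were at 38.3 and 40.4.

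**Figure D3:**
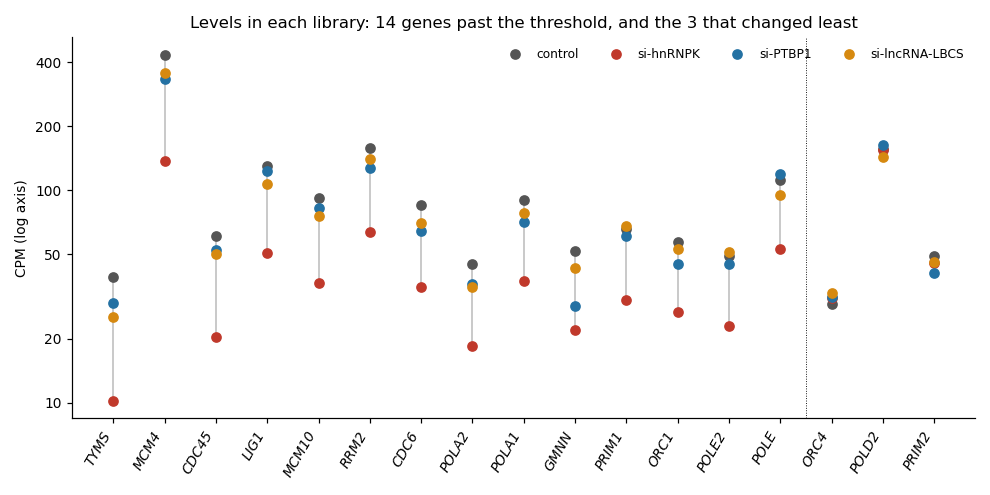
Level (CPM, log axis) in each of the 4 libraries of the 14 genes that fell by 1 or more in si-hnRNPK and, right of the dotted line, of ORC4, POLD2 and PRIM2, the 3 that differed least as deposited, with 1 point per library and a grey line over their range. The si-hnRNPK point is the lowest of each of the 14 genes (MCM4 137 CPM, TYMS 10.2 CPM), and the 4 points of POLD2 lie between 143 and 164 CPM.

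Among the factors that switch on the loaded helicase, CDC45 and MCM10 fell in si-hnRNPK and the GINS subunits did not pass the threshold. CDC45, which binds the ring and stays with it at the fork, stood at 61 CPM in control, 49.9 in the LBCS-labelled library, 20.3 in si-hnRNPK and 52.4 in si-PTBP1. It fell by 1.54 to 33.2% of control (interval 31 to 35.5%). MCM10, needed for the ring to start unwinding, was at 92.4, 76, 36.8 and 82.6 CPM and fell by 1.31 to 39.8% of control (interval 37.8 to 41.9%). Both were past the threshold against each of the 3 other libraries as deposited, and after median-of-ratios scaling CDC45 still was, while MCM10 was so only against control.

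The 4 GINS subunits, which complete the active helicase, lay at 55.2% (GINS2) to 75.6% (GINS3) of control in si-hnRNPK. GINS1 was at 97.5 CPM in control, 122 in the LBCS-labelled library, 69.6 in si-hnRNPK and 105 in si-PTBP1. Its 125% of control in the LBCS-labelled library (interval 121 to 130%) was above control, though the difference of 0.32 was within the threshold. The summed level of helicase activation factors was 53.3% of control in si-hnRNPK but 94.2% in si-PTBP1 and 96.3% in the LBCS-labelled library.

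DNA polymerase alpha-primase makes the RNA-DNA primers from which all strands grow, and 3 of its 4 subunits fell in si-hnRNPK. POLA1, the catalytic polymerase subunit, stood at 89.8 CPM in control, 78.6 in the LBCS-labelled library, 37.5 in si-hnRNPK and 71.3 in si-PTBP1, a fall of 1.24 to 41.8% of control (interval 39.7 to 44%). POLA2, its accessory subunit, was at 45.2, 35.1, 18.6 and 36.1 CPM and fell to 41.1% (interval 38.2 to 44.1%). PRIM1, the catalytic primase subunit, was at 65.8, 68.3, 30.4 and 60.9 CPM and fell by 1.09 to 46.1% (interval 43.5 to 48.9%), which was not past the threshold after median-of-ratios scaling. PRIM2, the other primase subunit, differed from these, with 49 CPM in control and 46.1, 45.3 and 41 in the others. It was at 92.4% of control in si-hnRNPK (interval 87.6 to 97.5%) and lower, at 83.7%, in si-PTBP1. Its difference of -0.11 in si-hnRNPK became -0.00 with the median-of-ratios scaling. The reads of PRIM1 for each PRIM2 read, again a ratio picked after the values were seen, were 1.34 in control, 1.48 in each of the libraries si-PTBP1 and si-lncRNA-LBCS and 0.671 in si-hnRNPK.

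The extending polymerases differed in how far they were from control. POLE and POLE2, the catalytic and second subunits of polymerase epsilon on the leading strand, were both past the threshold in si-hnRNPK as deposited. The polymerase delta subunits among the 45 were not. Outside the 45, the epsilon subunits POLE3 (-0.13) and POLE4 (-0.90) and the delta subunit POLD4 (0.46) were within the threshold there too. POLE stood at 112 CPM in control, 94.8 in the LBCS-labelled library, 53.1 in si-hnRNPK and 119 in si-PTBP1, and fell by 1.06 to 47.5% of control (interval 45.5 to 49.6%). POLE2 stood at 49.2, 51, 23.1 and 45.2 CPM and also fell by 1.06, to 46.9% (interval 43.8 to 50.1%). These were the last genes inside the threshold, and neither was past it after median-of-ratios scaling.

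For polymerase delta, the catalytic subunit POLD1 was at 155, 144, 129 and 124 CPM, lowest in si-PTBP1 (80.5% of control, interval 78 to 83%), and POLD3 was at 69% of control in si-hnRNPK (difference -0.53). POLD2, the subunit that holds the complex together, was at 157 CPM in control, 143 in the LBCS-labelled library, 155 in si-hnRNPK and 164 in si-PTBP1. Its interval in si-hnRNPK, 95.7 to 101% of control, included no change, and its difference of -0.02 became 0.09 with the median-of-ratios scaling. For each POLD1 read there were 0.722 POLE reads in control, 0.659 in the LBCS-labelled library, 0.411 in si-hnRNPK and 0.954 in si-PTBP1, a ratio also picked after the values were seen.

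**Figure D4:**
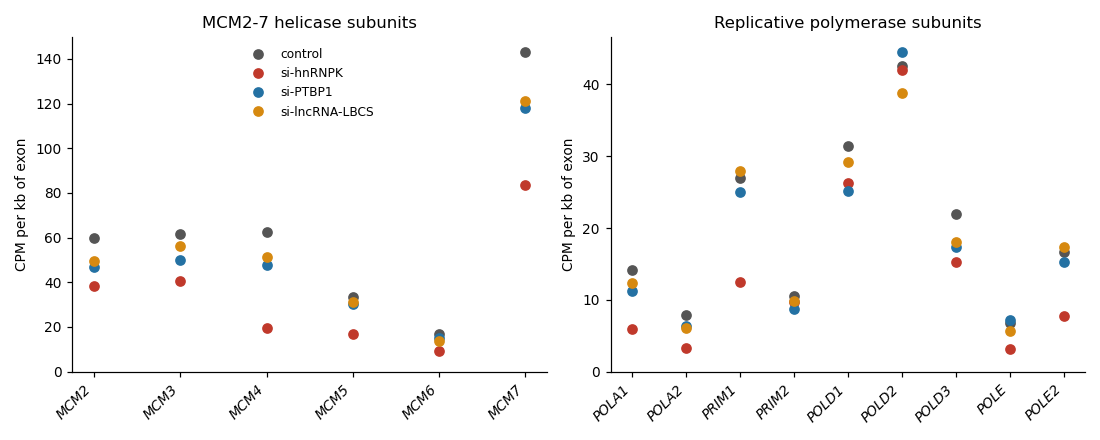
Level per length (CPM per kb of merged exons) of the MCM2-7 subunits and of the replicative polymerase subunits, with 1 point for each of the 4 libraries. MCM4 lies at 62.5 in control and 19.6 in si-hnRNPK, while POLD2 lies at 42.6 and 42.

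PCNA, the clamp that keeps the polymerases on DNA, had the highest level per length of the 45 genes. It was at 285 CPM per kb in control, followed by MCM7 (143) and FEN1 (63.1), and the lowest was ORC4 (3.28). In CPM, PCNA was at 419 in control, 403 in the LBCS-labelled library, 239 in si-hnRNPK and 313 in si-PTBP1, so at 57.1% of control in si-hnRNPK (difference -0.81) and 74.9% in si-PTBP1. Among the RFC subunits, which load the clamp, RFC5 came closest to the threshold in si-hnRNPK, with 106, 95.5, 52.6 and 78.7 CPM and a difference of -0.998 that lay just outside it. RFC1, RFC2 and RFC3 were at 74.5%, 64.6% and 70.9% of control in si-hnRNPK (differences -0.42, -0.62 and -0.48) and at 95.4%, 87.7% and 99.9% in si-PTBP1, with none past the threshold. RFC4 was the one member of the set that stayed above control in si-PTBP1 under both scalings, with 69.2 CPM in control, 84.3 in si-PTBP1 (122% of control, interval 117 to 127%) and 41.1 in si-hnRNPK. The 6 other genes above control in si-PTBP1 as deposited (ORC2, ORC4, GINS1, POLD2, POLE and RPA1, by 0.03 to 0.10) were below it after median-of-ratios scaling.

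RPA coats the single-stranded DNA that the helicase exposes, and its 3 subunits each had a different pattern over the libraries. RPA1, the largest subunit, was at 56.2 CPM in control, 30.9 in the LBCS-labelled library, 29.1 in si-hnRNPK and 57.5 in si-PTBP1. It was the lowest gene relative to control in the LBCS-labelled library, at 55% (interval 52.1 to 58.1%, difference -0.84), close to its 51.7% in si-hnRNPK (difference -0.93). RPA2 was at 76.8, 63.6, 49.6 and 50.1 CPM, hence at 64.6% of control in si-hnRNPK and 65.3% in si-PTBP1. RPA3, the smallest subunit, was at 17.9, 26.2, 10.9 and 16.6 CPM. It was the gene highest above control in any library, at 146% (interval 136 to 158%, difference 0.52) in the LBCS-labelled library, on 1838 reads there and 1099 in control. No RPA subunit was past the threshold against control.

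The lagging strand is finished by FEN1, which trims the flap of each Okazaki fragment, and LIG1, which seals the nick. LIG1 stood at 130 CPM in control, 107 in the LBCS-labelled library, 50.6 in si-hnRNPK and 123 in si-PTBP1, and fell by 1.34 to 38.9% of control (interval 37.2 to 40.6%). FEN1 stood at 156, 148, 96 and 103 CPM, which gave similar ratios to control in si-hnRNPK (61.4%, interval 59.4 to 63.5%) and si-PTBP1 (65.7%, interval 63.5 to 67.9%), neither past the threshold.

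The 4 enzymes of nucleotide supply had a summed level of 492 CPM in control and 239 CPM in si-hnRNPK, or 48.7% of control (interval 47.7 to 49.7%), beside 82.3% in si-PTBP1 and 92.6% in the LBCS-labelled library. TYMS encodes thymidylate synthase, which makes thymidylate from deoxyuridylate (ENSG00000176890, chromosome 18 from 657604 to 673578 on the plus strand of GRCh38). It was at 39.1 CPM in control, 25.4 in the LBCS-labelled library, 10.2 in si-hnRNPK and 29.6 in si-PTBP1. Its fall of 1.84, to 26.1% of control (interval 23.7 to 28.6%), was the largest of the 45. Of its exon bases, 39.1% are shared with the gene ENOSF1 on the opposite strand, which was at 25.4, 26.6, 13.2 and 21.9 CPM, and as the strand setting of the counting is not given in the sources used here, reads of the 2 genes may not have been told apart.

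Ribonucleotide reductase turns ribonucleotides into deoxyribonucleotides and is built from RRM1 and RRM2. RRM2, the small subunit, was at 159 CPM in control, 140 in the LBCS-labelled library, 63.8 in si-hnRNPK and 127 in si-PTBP1, and fell by 1.31 to 40.1% of control (interval 38.5 to 41.7%). RRM1, the large subunit, was at 217, 222, 126 and 193 CPM, with 58% of control in si-hnRNPK and a difference of -0.78 within the threshold. There were 0.734 RRM2 reads for each RRM1 read in control and 0.507 in si-hnRNPK (interval 0.487 to 0.528), a ratio picked after the values were seen. TK1, which salvages thymidine, stood at 76, 67, 39.2 and 54.8 CPM, so its difference of -0.94 in si-hnRNPK was just outside the threshold.

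Reads of a member and of a near-identical copy can be exchanged in counting. Pseudogenes named for a member are annotated for 8 of the 45 (PCNA, RFC3, RFC5, POLD2, RPA2, FEN1, RRM2 and TYMS). POLA2 and RRM2 share 35.1% and 20.2% of their exon bases with a same-strand gene that is listed in none of the tables.

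Related genes outside the 45, from lists chosen with earlier results of these data known, were counted in the same way. Of 33 other replication genes, 30 were lower in si-hnRNPK, beside 58.4% of all genes, with a median of -0.75. Among the 33, 4 fell by 1 or more (12.1% beside 3.93% of all genes). These 4 were CLSPN (-1.66), the checkpoint adaptor at the fork, TICRR (-1.33), a factor of origin firing, ATAD5 (-1.33), which helps to unload PCNA, and TOP1 (-1.14), the topoisomerase that relieves torsion. In si-PTBP1 and the LBCS-labelled library none of the 33 was past the threshold, and their medians were -0.11 and -0.04. Of all genes, 0.613% were lower and 2.92% higher by the threshold in si-PTBP1. The shares were 1.01% and 0.378% in the LBCS-labelled library.

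The wider nucleotide pathways were counted apart from the 4 enzymes. Of 31 other genes of nucleotide and folate metabolism, 21 were lower in si-hnRNPK, beside 58.4% of all genes, with a median of -0.18 beside -0.11 for all genes. Those lower included ATIC (-0.98), MTHFD1 (-0.90), SHMT1 (-0.89) and DTYMK (-0.85). SAMHD1, which breaks down deoxyribonucleotides, was among the 10 above control there, with a difference of 0.71. It stood at 35.2 CPM in control, 34.2 in the LBCS-labelled library, 58.2 in si-hnRNPK and 18 in si-PTBP1. In si-PTBP1, SHMT2, a mitochondrial enzyme of folate metabolism, fell by 1.08, from 211 CPM in control to 99.1. CTPS2, which makes CTP, rose by 1.12 there, from 1.17 CPM in control to 3.73, a level close to the filter. CTPS2 was also above control in si-hnRNPK (0.66) and in the LBCS-labelled library (0.35).

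Other lists moved in the same library. All 20 mitotic genes were lower in si-hnRNPK, beside 58.4% of all genes, with a median of -1.15. Of the 20, 15 fell by 1 or more (75% beside 3.93% of all genes). None was past the threshold in si-PTBP1 (0.613% of all genes lower, 2.92% higher) or in the LBCS-labelled library (1.01% lower, 0.378% higher). In the E2F and RB family, 11 of 13 were lower in si-hnRNPK, beside 58.4% of all genes, with a median of -0.31. Of the 13, 3 fell by 1 or more (23.1% beside 3.93% of all genes), E2F8 (-1.40), E2F2 (-1.22) and E2F7 (-1.06). E2F1 was at -0.31. All 25 interferon-stimulated genes were higher in si-hnRNPK, beside 5691 of the 13672 genes tested, with a median of 2.90. Of the 25, 23 rose by 1 or more (3.55% of all genes did). IFI27, IFI44L, MX1, MX2, OAS2, RSAD2 and CMPK2 were below 1 CPM in control. They passed the filter only through si-hnRNPK, so their direction was fixed by the filter. The part of the cell cycle state or of the interferon response in the values of the 45 genes was not tested.

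Promoters of the 45 genes were searched for the E2F motif, in the 300 bases from 250 before to 50 after each RefSeq start site (GRCh38.p14). The spellings searched on both strands were TTTCCCGC, TTTCGCGC, TTTGCCGC and TTTGGCGC. The table held 39 of the 45 genes (all except MCM4, MCM5, GINS4, POLD3, RPA2 and RPA3), and 19 of the 39, or 48.7%, held a match, beside 6.81% of the 10100 genes tested in si-hnRNPK that are in the table. Counted by window, 3.31% of all 35116 windows held one. CCAAT, the NF-Y motif, was in 24 of the 39 (61.5%), beside 43.4% of the tested genes in the table, and the CHR motif of mitotic promoters (TTTGAA or TTCGAA) was in 2 of the 39 (5.13%), beside 15.5% of the tested genes. The choice of genes did not use the motif itself. Many of the genes are known E2F targets, however, so a raised share comes with the choice and is no separate result. The match is a description of letters, not of binding.

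Windows of 30 bases around matches upstream of the RefSeq start site are printed for genes past the threshold in si-hnRNPK, then MCM6 and ORC3. They read 5′ to 3′ on the strand of the gene, with the match in capitals, and GCGGGAAA and GCGCCAAA are the opposite-strand readings of TTTCCCGC and TTTGGCGC.
TYMS, chr18:657603-657632, plus strand: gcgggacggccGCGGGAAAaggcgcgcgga
LIG1, chr19:48170440-48170469, minus strand: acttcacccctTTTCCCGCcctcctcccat
POLA1, chrX:24693770-24693799, plus strand: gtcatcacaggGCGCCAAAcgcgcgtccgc
POLA2, chr11:65261898-65261927, plus strand: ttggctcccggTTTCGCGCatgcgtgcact
GMNN, chr6:24775322-24775351, plus strand: gctgggtcggtTTTGGCGCgctctcacttc
POLE, chr12:132687343-132687372, minus strand: ctgggtgggagcGCGCCAAAtttctcccct
MCM6, chr2:135876511-135876540, minus strand: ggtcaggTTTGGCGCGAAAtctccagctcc
ORC3, chr6:87590105-87590134, plus strand: ctgcagccgcgagggcgcGCGGGAAAtccc
In MCM6 the capitals hold 2 overlapping matches, TTTGGCGC and, on the opposite strand, TTTCGCGC. MCM6 was at a difference of -0.86 and ORC3 at -0.24 in si-hnRNPK, so a match was also present in genes within the threshold. MCM3, MCM7, CDT1, GINS2, PCNA and RFC3, also lower but within the threshold, held an upstream match too and are not printed.

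The match was found on both sides of the threshold. It was in 8 of the 13 genes past the threshold that the table holds and in 11 of the 26 others, and the median difference in si-hnRNPK was -0.86 with a match and -0.72 without. CDC45, MCM10, RRM2, ORC1 and PRIM1 fell without a match in their windows. Among all genes tested, the medians were -0.21 with a match and -0.09 without.

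The seed letters of the siRNAs were searched in the longest annotated 3′ UTR of each gene, as siRNAs can lower transcripts that hold them. For either hnRNPK siRNA, 6 of the 45 genes held a match (13.3%), beside 27.1% of 11703 genes tested, and their median difference in si-hnRNPK was -0.74, against -0.81 for the 39 without. Over all genes tested the order was the opposite, with a median of -0.18 with a match and -0.07 without. The 2 siRNAs differed when taken singly. For hnRNPK siRNA 1 (MCM4, ORC4, CDC6 and GINS3) the medians were -0.82 with a match and -0.78 without, beside -0.25 and -0.08 for all genes. For hnRNPK siRNA 2 (FEN1 and RRM1) they were -0.74 and -0.81, beside -0.15 and -0.09 for all genes. Of the 14 genes past the threshold, 12 held no match for either. The 2 with one, for hnRNPK siRNA 1, were MCM4 and CDC6.

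GMNN had the lowest ratio to control in si-PTBP1 and RPA1 in the LBCS-labelled library, and both were picked by these ratios. Each held a match. These sites are printed with that of CDC6 because they mark where a guide could pair. The 23 bases are on the plus strand of GRCh38, with the seed match in capitals.
CDC6 with hnRNPK siRNA 1, chr17:40303719-40303741: taagggttaacaTGCATAAttgc
GMNN with PTBP1 siRNA 1, chr6:24785927-24785949: cctattgcattaAAGTACAaata
RPA1 with lncRNA-LBCS siRNA 1, chr17:1897782-1897804: tgagtcagatggGTCTGATatta
For PTBP1 siRNA 1, 5 of the 45 genes held a match (ORC1, ORC3, GMNN, PCNA and POLD3), 11.1% beside 13.1% of genes tested. Their median in si-PTBP1, which includes the picked GMNN, was -0.34 against -0.17 for the others. Over all genes tested, the medians were 0.07 with a match and 0.13 without. For PTBP1 siRNA 2 it was the other way round. The 5 genes with a match (ORC4, CDT1, GINS2, GINS4 and RPA1), 11.1% beside 15.1% of genes tested, had a median of -0.12 and the others one of -0.21. All genes tested had medians of 0.08 with a match and 0.13 without. For lncRNA-LBCS siRNA 1 only RPA1 and LIG1 held one, 4.44% beside 9.4% of genes tested. The median of these 2 genes in the LBCS-labelled library was -0.56 against -0.13 for the others, and it includes the picked RPA1. Over all genes tested it was -0.08 with a match and -0.00 without. For lncRNA-LBCS siRNA 2, 5 genes held a match (MCM2, MCM3, ORC4, GINS3 and POLD3), 11.1% beside 18.2% of genes tested. They had a median of -0.28 and the others one of -0.14, beside -0.05 and -0.00 for all genes tested. Whether pairing at these sites has a part in the levels of GMNN and RPA1 was not tested.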

How the data were processed

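Each of the 4 tables holds Ensembl gene identifiers and CPM, which the authors computed per library and deposited. The submitters' processing notes name the build hg19, and the aligner, the counting, its strand setting and any filter are not given in the sources used here. Within each table, 100% of the values above the placeholder for genes without a read were whole multiples of 1 read (tolerance 0.001 of a read), which gave back the reads. The 45 genes and the lists were chosen with earlier results of these data known. The 45 are each named or counted within their complex, and 1 gene of the other lists is not reported here. Given in full are those past the threshold in any comparison with control, those just inside and outside it, the 3 that changed least in si-hnRNPK as deposited and the 3 highest per length in control.

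Differences in log2(CPM + 1) were taken for genes that reached 1 CPM in either library, with a threshold of 1 and no p-value, since there was 1 library per condition. A count model needs replicates, so the count alternative was a binomial test (exact, q of 0.05 or less after Benjamini-Hochberg adjustment) on the recovered reads. It compares 2 libraries, not the conditions, and called 43 of the 45 genes in si-hnRNPK (79.7% of all genes), 40 in si-PTBP1 (73.8%) and 38 in the LBCS-labelled library (70.5%). At these depths 3 reads are 0.0427 to 0.0552 CPM. Symbols matched 25647 of 27629 identifiers. Exon lengths, overlaps, 3′ UTRs and transcripts came from GENCODE release 29 (GRCh38), matched by identifier, and promoters from RefSeq. Alternatives were a pseudocount of 0.1, no filter or one of 5 CPM, a 1.5-fold threshold, scaling by median of ratios, a reference made of the geometric mean of 3 libraries and, for the E2F motif, its last 6 bases. The scripts were tested on simulated reads, and used scipy 1.17.1, pandas 2.3.3, numpy 2.4.6 and matplotlib 3.10.9 under Python 3.11.15.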

Additional observations from a re-analysis of the deposited data

How the results depend on the processing

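With a 1.5-fold threshold in place of about 2-fold, the counts of lower genes among the 45 were 33 in si-hnRNPK against control (14 as reported, and 15.8% of all genes), 3 in si-PTBP1 (0 as reported, 3.12% of all genes; GMNN, RPA2 and FEN1) and 2 in the LBCS-labelled library (0 as reported, 5.74%; RPA1 and TYMS). They were 21 for si-hnRNPK against si-PTBP1 (7 as reported, 23%) and 26 for si-hnRNPK against the LBCS-labelled library (10 as reported, 11.5%). Median-of-ratios scaling moved the median of the 45 from -0.78 to -0.67 in si-hnRNPK, from -0.17 to -0.30 in si-PTBP1, from -0.57 to -0.34 for si-hnRNPK against si-PTBP1, where 4 genes in place of 7 were past the threshold, and from -0.75 to -0.65 for si-hnRNPK against the LBCS-labelled library, where 7 in place of 10 were past it. Under it ORC1, PRIM1, POLE and POLE2 were no longer past the threshold in si-hnRNPK. Of all genes, 2.72% were lower by the threshold under it in si-hnRNPK against control. The share was 2.67% against si-PTBP1 and 1.76% against the LBCS-labelled library. With the geometric mean of the 3 other libraries as the reference, 12 genes were past it (without ORC1 and GMNN), and with a pseudocount of 0.1 there were 15 (with RFC5). The last 6 bases of the E2F motif were in the promoters of 97.4% of the 39 genes (48.7% for all 8 bases) and of 77.4% of the tested genes. No paired analysis was possible because each condition had 1 library, and for the same reason no replicate could be left out. The read depth is not a limit for these genes. The spread between cultures is unknown.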
